A study of Mus musculus with 13 samples.

Results

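Abca1, Ugcg, Gba2, Nsmaf and Slc44a1, 5 genes that handle cholesterol, glycosphingolipids, sphingomyelin and choline at cell membranes, were followed through 13 RNA sequencing libraries. They were chosen by name and function from the 56923 gene IDs of the count files, with earlier results of these data known. All lie in a stretch of chromosome 4 in which gene names could be matched to their counts. All 5 passed the filter on low counts, which kept 10422 IDs. The RNA came from CD45+ cells sorted by flow cytometry out of EL4 tumours, a T-cell lymphoma of the mouse whose own cells carry CD45. The sorted cells may therefore include lymphoma cells as well as leukocytes of the host.

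The vector group held 7 libraries from tumours of EL4 cells with a vector, and the PSGL1_KO group held 6 libraries from tumours of EL4 cells with a knockout of PSGL1, a glycoprotein of leukocytes that binds selectins and is encoded by Selplg. In both groups, 500000 cells were injected under the skin of the right flank of mice 6 to 8 weeks old, and tumours were taken about 20 days later. The knockout was in the injected cells. The strain of the mice, the number of clones behind the knockout line and whether each library came from its own mouse are not stated in the labels, so p-values measure only the spread between these libraries. The treatment labels number the EL4 cells serially, and the groups were taken from the titles. The series title asks whether PSGL-1 on the tumour suppresses phagocytosis by macrophages.

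Gene IDs received 3710817 to 5712566 counts per library. Vector replicate 5 stood apart by its share of mitochondrial counts, 34.5% against 10.0% to 17.8% in the other 12 libraries. The deposited files carry numbers that start with 3 (2 vector and 2 PSGL1_KO libraries) or with 7 (5 vector and 4 PSGL1_KO libraries), and no label says what the number means. Gene names could be used only in part: 243 housekeeping genes elsewhere in the nuclear genome had a median of 0.52 CPM (counts per 1000000 gene counts, here without TMM factors). In the stretch, GRCm38 chromosome 4 from 3549041 to 59801589, the 4 housekeeping genes Rps20, Dnaja1, Vcp and Clta were at 799 to 7024 CPM on that scale, and 11 olfactory receptor genes, silent in most tissues, were at no more than 0.14 CPM. Clta, the last of these housekeeping genes, ends at 44032846, and Abca1, Slc44a1 and Ugcg lie beyond it. The names of these 3 members thus have no housekeeping gene on their far side, and Ugcg ends 0.58 Mb before the stretch does. Selplg and the macrophage genes Adgre1, Csf1r, C1qa and Cd68 lie outside the stretch, so neither the knockout nor the sorted cell types could be checked on them. The ID of Ptprc, which encodes CD45, also lies outside the stretch and had 149 to 571 counts.

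Glycosphingolipids begin with glucosylceramide, which UGCG makes from ceramide on the Golgi membrane and which GBA2 breaks down outside the lysosome. ABCA1 moves cholesterol and phospholipid out of the cell onto lipid-poor apolipoprotein A-I, and its gene is a textbook target of the sterol-sensing LXR nuclear receptors in macrophages. NSMAF, also called FAN, couples the TNF receptor to neutral sphingomyelinase, which releases ceramide from sphingomyelin. SLC44A1 carries choline, the head group of phosphatidylcholine and sphingomyelin, across the plasma membrane and the mitochondrial membrane.

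Ugcg, Slc44a1 and Abca1 were higher in PSGL1_KO than in vector libraries, by 2.04-fold, 1.68-fold and 1.27-fold. Gba2 and Nsmaf did not pass the test, with log2 fold changes of -0.03 and -0.25. Levels from here on are CPM with TMM factors. Of the 5 members, 3 were therefore called higher at an adjusted p below 0.05 by edgeR's quasi-likelihood test. The same threshold called 25.8% of all 10422 IDs in either direction and 13.8% higher, and 36.5% of the 211 protein-coding IDs tested in the stretch. Calls of a rise were thus common among genes of the stretch, and the count of members is a description of them. No member was called lower, where 12.0% of all IDs and 2.37% of the protein-coding IDs of the stretch were. At an unadjusted p below 0.05, 1 member (Nsmaf) was lower, and it was also called lower by DESeq2 but not by limma-voom. The members had a median log2 fold change of 0.34, the protein-coding IDs of the stretch 0.25 and all IDs -0.02. In sorted cells measured in bulk, more cells of a type and more RNA per cell cannot be told apart.

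**Figure D1:**
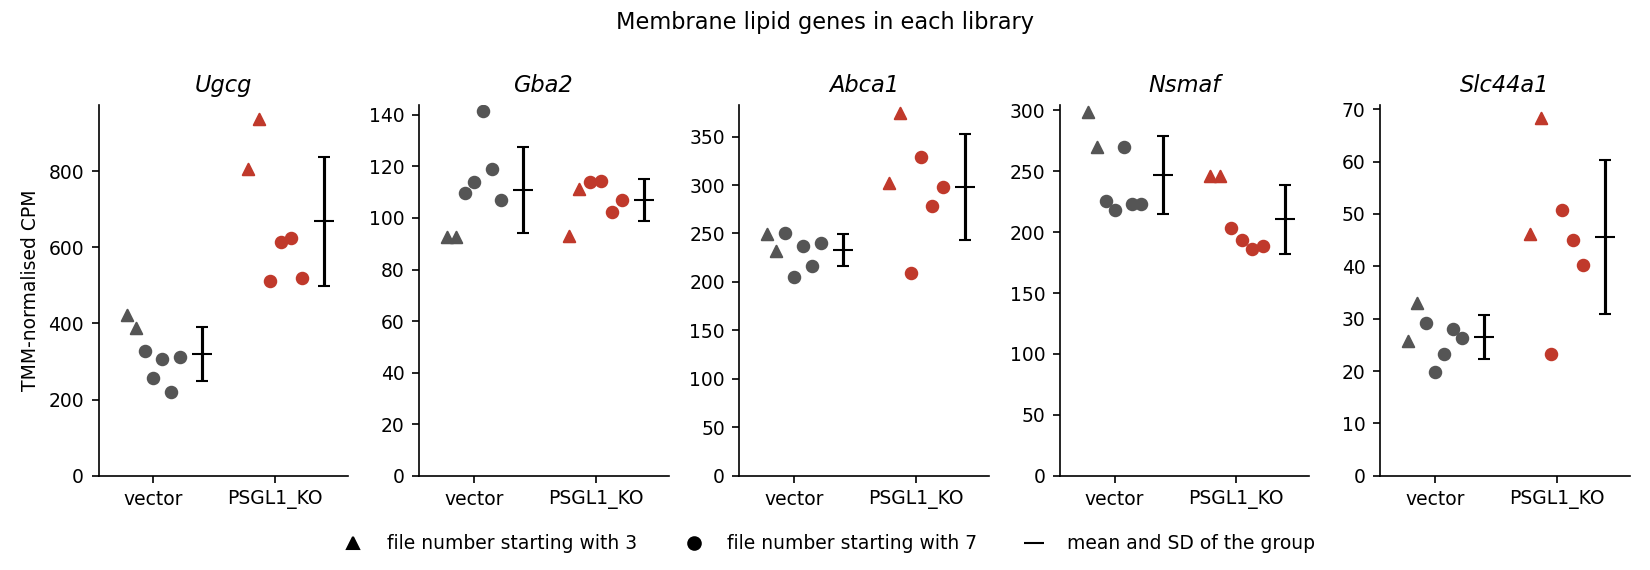
Level of each member in every library, as TMM-normalised CPM on a linear axis from 0, with vector in grey, PSGL1_KO in red, the leading digit of the file number by the shape of the point, and bars at the mean and SD of each group. All 6 PSGL1_KO libraries lie above all 7 vector libraries for Ugcg, 5 of the 6 do so for Abca1 and Slc44a1, and the groups overlap for Gba2 and Nsmaf.

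The scale of the levels bears on all 5 values. The main scale rests on 10422 IDs, of which only 247 lie in the stretch where gene names could be matched to counts. The adjusted p-values and the shares of all IDs rest on the same 10422 IDs. Scaling the libraries on the nuclear IDs of the stretch, in place of all IDs, moved the median of all IDs from -0.02 to -0.26 on the log2 scale and that of the stretch from 0.25 to 0.01. The split of called IDs moved from 1435 higher and 1254 lower to 829 higher and 2982 lower. On that scale Ugcg and Slc44a1 were still called higher, at 0.79 and 0.50. Abca1 was at 0.10 and did not pass, and Gba2 and Nsmaf were called lower, at -0.28 and -0.49. Without vector replicate 5, the library with the high mitochondrial share, the log2 fold changes were 1.03 for Ugcg, 0.72 for Slc44a1, 0.34 for Abca1 (adjusted p 0.033), 0.00 for Gba2 and -0.22 for Nsmaf. Each change given here is relative to the other genes used for scaling.

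Ugcg (ENSMUSG00000028381.9, GRCm38 chromosome 4, 59189257 to 59222833, plus strand) encodes ceramide glucosyltransferase. Ugcg had a lowest, median and highest level of 220, 313 and 423 CPM in the 7 vector libraries, from 1107 to 1776 counts. In the 6 PSGL1_KO libraries these were 512, 619.8 and 938 CPM, from 2708 to 3701 counts. The groups did not overlap, which held for 6.54% of all IDs in either direction and 4.14% in this one. Of the IDs tested, 247 lie in the stretch, and the share among those alone is not given here. The means were 319 ± 70.4 CPM (SD, n = 7) and 669 ± 169 CPM (SD, n = 6). The log2 fold change was 1.03 ± 0.11 (SE; 95% interval 0.80 to 1.26), with an adjusted p of 4.9e-07 in edgeR. The knockout libraries separated from the vector libraries within each file number too. Among files numbered from 3, the vector libraries were at 423 and 389 CPM and the PSGL1_KO libraries at 805 and 938 CPM. Among files numbered from 7, vector ranged from 220 to 328 CPM and PSGL1_KO from 512 to 625 CPM. Ugcg kept its call in all 24 alternative fits, including each fit without 1 of the 13 libraries, where the log2 fold change was 0.98 to 1.08.

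Gba2 (ENSMUSG00000028467.16, chromosome 4, 43566928 to 43578873, minus strand), which encodes the non-lysosomal glucosylceramidase, hydrolyses the product of UGCG. It had a lowest, median and highest level of 92.5, 109.8 and 141 CPM in vector libraries and of 93.0, 109.1 and 114 CPM in PSGL1_KO libraries. The 2 ranges lay on top of each other. The means were 111 ± 16.8 CPM (SD, n = 7) and 107 ± 8.22 CPM (SD, n = 6). The log2 fold change was -0.03 ± 0.10 (SE; 95% interval -0.25 to 0.18), with an adjusted p of 0.85 in edgeR, so a rise the size of that of Ugcg lay outside the interval. The exons of Gba2 overlap those of Creb3 by 133 bp and those of Rgp1 by 159 bp on the other strand. The sources used here do not give the strand setting of the counting, and reads from those bases cannot be assigned to a gene. Its level was highest, at 141 CPM, in vector replicate 5.

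Per kilobase of exon, Ugcg stood above Gba2 in every library. The ratio of the 2 levels, each as CPM per kb, was 1.59 to 3.93 in the vector libraries, with a mean of 2.57 ± 0.90 (SD, n = 7). In the PSGL1_KO libraries it was 3.86 to 7.44, with a mean of 5.43 ± 1.55 (SD, n = 6). PSGL1_KO replicate 3, at 3.86, lay just under vector replicate 1, at 3.93, so the groups overlapped by this pair. Files numbered from 3 had the highest ratios in either group: 3.93 and 3.61 in vector and 7.44 and 7.25 in PSGL1_KO. The ratio compares transcripts, and enzyme activity was not measured.

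**Figure D2:**
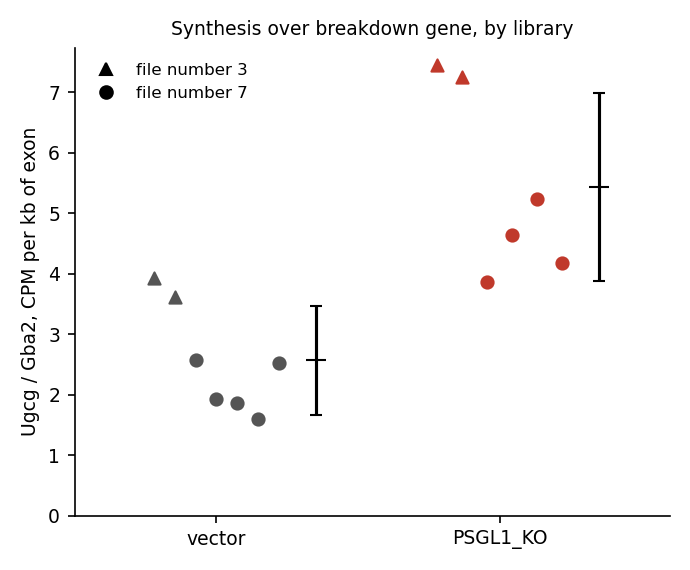
Ratio of Ugcg to Gba2, each as CPM per kilobase of exon, in every library, on an axis from 0, with bars at the mean and SD of each group. Vector libraries lie at 1.59 to 3.93 and PSGL1_KO libraries at 3.86 to 7.44, and within each group the libraries whose file number starts with 3 are the highest.

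Abca1 (ENSMUSG00000015243.5, chromosome 4, 53030787 to 53159895, minus strand) encodes the cholesterol exporter. Its promoter, the 250 bases before the start in RefSeq for GRCm38.p6 (chr4:53159896-53160145, minus strand), is shown because it holds the repeat through which LXR receptors act on this gene in textbook accounts. Capitals mark, in order, a GC box, an E-box, a second GC box and the repeat.
Abca1: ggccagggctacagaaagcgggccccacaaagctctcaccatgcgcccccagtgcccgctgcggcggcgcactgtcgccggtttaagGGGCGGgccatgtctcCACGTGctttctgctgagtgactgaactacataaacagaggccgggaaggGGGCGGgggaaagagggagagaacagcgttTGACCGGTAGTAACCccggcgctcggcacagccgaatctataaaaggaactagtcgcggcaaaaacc
The repeat was searched on both strands as TGACC and TNACC with any 5 bases between them, a relaxed form written with this known site in view, and it lay 67 bases before the start. Of 32851 mouse promoter windows of this length, 58, or 0.18%, held it. The E-box CACGTG lay at 147 bases before the start and occurred in 6.02% of the windows, and the GC box, GGGCGG searched on both strands, lay at 163 and 97 bases and occurred in 32.74%. A match is a run of letters, and binding was not measured. The core of a sterol response element searched in the same windows, TCACCCCA, was not among the letters of the Abca1 or Slc44a1 window and occurred in 1.34% of all windows.

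Abca1 had a lowest, median and highest level of 205, 237 and 250.4 CPM in the vector libraries and of 209.5, 299.7 and 374 CPM in the PSGL1_KO libraries. Of the 6 PSGL1_KO libraries, 5 lay above every vector library, and replicate 3, at 209.5 CPM, lay near the bottom of the vector range. The means were 233 ± 16.9 CPM (SD, n = 7) and 298 ± 54.7 CPM (SD, n = 6), so the knockout libraries were also the more widely spread. The log2 fold change was 0.34 ± 0.11 (SE; 95% interval 0.11 to 0.58), with an adjusted p of 0.028 in edgeR. This call was lost with the group as the only term (0.36, adjusted p 0.091), in the libraries of file number 7 alone (0.27, adjusted p 0.15), with a replicate block in place of the file number (0.36, adjusted p 0.08), with scaling on the stretch (0.10, adjusted p 0.44) and when vector replicate 2, 4 or 6 or PSGL1_KO replicate 2 or 4 was left out on its own (0.29 to 0.34, adjusted p 0.053 to 0.091). Without PSGL1_KO replicate 3 it was 0.44, with an adjusted p of 0.0043.

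Nsmaf (ENSMUSG00000028245.16, chromosome 4, 6396207 to 6454271, minus strand), which encodes the sphingomyelinase adaptor, was the member with the lowest log2 fold change. Its lowest, median and highest levels were 219, 226 and 299 CPM in vector libraries and 186, 198 and 246 CPM in PSGL1_KO libraries. PSGL1_KO replicates 3 to 6 lay below every vector library, and replicates 1 and 2, both at 246 CPM, lay inside the vector range. Those 2 share the file number 3 with vector replicates 1 and 2, which were at 299 and 270.2 CPM, so the PSGL1_KO libraries were the lower ones within each file number. The means were 247 ± 31.9 CPM (SD, n = 7) and 211 ± 28.3 CPM (SD, n = 6). The log2 fold change was -0.25 ± 0.09 (SE; 95% interval -0.44 to -0.05), with an adjusted p of 0.054 in edgeR. It passed in 3 of the 24 alternative fits: DESeq2 (adjusted p 0.014), scaling without mitochondrial IDs (adjusted p 0.046) and scaling on the stretch (adjusted p 2e-04). The exons of Nsmaf overlap those of Sdcbp, a more abundant gene that rose in PSGL1_KO libraries, by 78 bp on the other strand.

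Slc44a1 (ENSMUSG00000028412.18, chromosome 4, 53440413 to 53622478, plus strand) encodes the choline transporter. Its promoter, RefSeq for GRCm38.p6 at chr4:53440163-53440412 on the plus strand, is shown beside that of Abca1 because the levels of these 2 members moved together across libraries, and GC boxes are in capitals.
Slc44a1: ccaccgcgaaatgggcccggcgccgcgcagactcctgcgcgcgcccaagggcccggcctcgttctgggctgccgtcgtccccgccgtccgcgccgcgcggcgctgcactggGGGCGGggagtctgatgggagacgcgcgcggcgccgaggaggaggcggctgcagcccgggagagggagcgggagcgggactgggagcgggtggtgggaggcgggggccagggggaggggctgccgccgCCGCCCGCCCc
It is 81.2% G and C, beside 61.6% for Abca1 and a median of 52.4% over all windows. GC boxes lay at 139, 11 and 7 bases before the start, and the last 2 overlap.

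Slc44a1 was the member with the fewest counts, 90 to 151 in vector libraries and 124 to 301 in PSGL1_KO libraries. Its lowest, median and highest levels were 19.9, 26.4 and 33.1 CPM in vector libraries and 23.2, 45.7 and 68.4 CPM in PSGL1_KO libraries. As for Abca1, 5 of the 6 PSGL1_KO libraries lay above every vector library, and replicate 3, at 23.2 CPM, lay inside the vector range. The means were 26.5 ± 4.22 CPM (SD, n = 7) and 45.7 ± 14.7 CPM (SD, n = 6). The log2 fold change was 0.75 ± 0.17 (SE; 95% interval 0.40 to 1.10), with an adjusted p of 0.0022 in edgeR. The call held in all 24 alternative fits. The value was 0.66 to 0.89 over the fits without 1 library each, and the highest of these was the fit without PSGL1_KO replicate 3. An antisense gene, 1700060J05Rik, overlaps 310 bp of its exons and had a mean of 3.34 CPM without TMM factors.

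**Figure D3:**
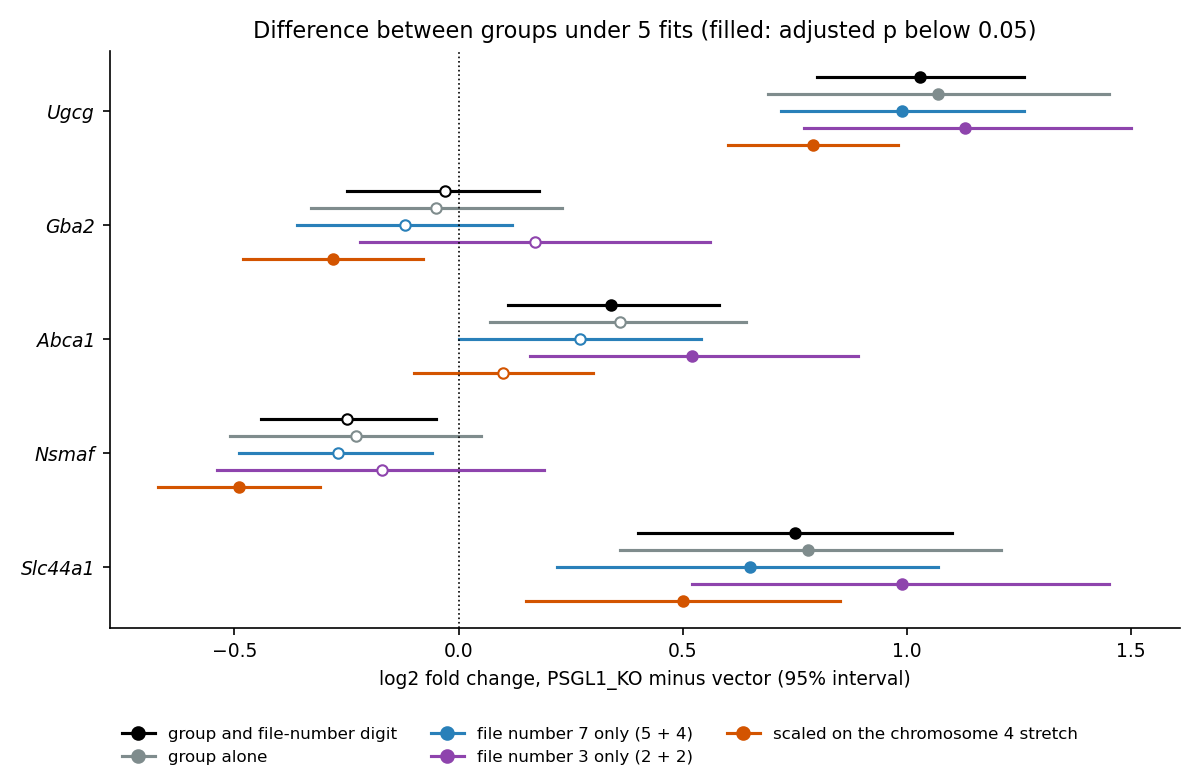
Log2 fold change of each member, PSGL1_KO minus vector, with its 95% interval under 5 fits, in which filled points passed an adjusted p of 0.05. Ugcg and Slc44a1 pass in all 5, Abca1 passes with the digit as a covariate and in file number 3 alone, and Gba2 and Nsmaf pass only when libraries are scaled on the chromosome 4 stretch.

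The leading digit of the file number separated the libraries for 2 members, whatever their group. Ugcg was higher in files numbered from 3 than in those numbered from 7, by 0.56 ± 0.12 on the log2 scale (SE, adjusted p 0.00077 in edgeR), and Nsmaf by 0.32 (adjusted p 0.013). The differences of Slc44a1 (0.37), Abca1 (0.17) and Gba2 (-0.23) did not pass. This digit called 39.8% of all IDs, so 2 of 5 members is close to the background. On the scale of the stretch the called members were Ugcg, at 0.41, and Gba2, at -0.39. With the digit in the model the whole table gave 2689 calls, and with the group alone it gave 1512, or 14.5%.

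The effect of the knockout was not shown to differ between the file numbers for any member. The test of that difference called 2.11% of all IDs and 0 of the 5 members in edgeR, with 0 at an unadjusted p below 0.05 and 0 by DESeq2 or limma-voom. For Ugcg the log2 fold change was 1.13 in file number 3, where 23.2% of IDs were called, and 0.99 in file number 7, where 20.8% were. The difference was 0.11 (95% interval -0.36 to 0.57). For Slc44a1 the values were 0.99 and 0.65, with a difference of 0.30 in the joint fit (95% interval -0.44 to 1.05). For Abca1 they were 0.52 and 0.27, with a difference of 0.21 (95% interval -0.26 to 0.68). These intervals are wide, since file number 3 has 2 libraries per group.

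Corrected for exon length, the order of the members in vector libraries was Ugcg at 61.2 ± 13.5 CPM per kb, Nsmaf at 29.5 ± 3.81, Gba2 at 24.7 ± 3.75, Abca1 at 22.5 ± 1.63 and Slc44a1 at 3.82 ± 0.61 (SD, n = 7). The levels of Nsmaf and Gba2, and of Gba2 and Abca1, overlapped within their SDs, and Ugcg and Slc44a1 lay clear of the other 3. In PSGL1_KO libraries Ugcg was at 128 ± 32.5 CPM per kb, Abca1 at 28.8 ± 5.28, Nsmaf at 25.2 ± 3.38, Gba2 at 23.9 ± 1.83 and Slc44a1 at 6.58 ± 2.12 (SD, n = 6). Abca1 thus moved from the fourth to the second place, by a gap to Nsmaf that was smaller than its SD.

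Abca1 and Slc44a1 also moved together from library to library. After removing the mean of each group within each file number, their log2 levels correlated with r = 0.84 and Spearman's rho = 0.74 over the 13 libraries. PSGL1_KO replicate 3 was low for both, and without it and vector replicate 4 the r was 0.60. Ugcg followed Abca1 with r = 0.63 and Slc44a1 with r = 0.41. File number 3 has 2 libraries per group, and their deviations from a shared mean mirror each other. The 13 values behind each r are therefore not all independent. These libraries share their depth and scaling between genes, and the values are descriptions.

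Among 206 protein-coding IDs of the stretch, Col15a1 and Tmeff1 were the 2 genes most like Abca1 (r = 0.84 for both) and also most like Slc44a1 (r = 0.91 and 0.86) by the same measure. Col15a1 encodes a basement membrane collagen and stood on the list of stromal and endothelial markers. Its level was low in PSGL1_KO replicates 1 and 3, at 31.9 and 38.0 CPM, at 64.8 CPM in replicate 2 and high in replicates 4, 5 and 6, at 146, 132 and 135 CPM. In vector libraries it was 51.0 to 98.2 CPM. Between groups Col15a1 had a log2 fold change of 0.23 with an adjusted p of 0.58 in edgeR. Without PSGL1_KO replicates 1 and 3 its r was 0.56 with Abca1 and 0.78 with Slc44a1. For Ugcg the 2 most like genes were Dnajc25 (r = 0.86, and 0.69 without vector replicates 3 and 6) and Chmp5 (r = 0.77), for Nsmaf Zcchc7 (r = 0.93) and Nfx1 (r = 0.92), and for Gba2 Triqk (r = 0.81) and Invs (r = 0.80). Before the means of group and file number were removed, Col15a1 had r = 0.21 with Abca1 and 0.20 with Slc44a1. Tmeff1 had r = 0.59 with either gene. Dnajc25 and Chmp5 had 0.87 and 0.79 with Ugcg. Zcchc7 and Nfx1 had 0.39 and -0.36 with Nsmaf, and Triqk and Invs had -0.25 and -0.14 with Gba2. Tmeff1 and Triqk were at means of only 4.27 and 2.75 CPM.

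**Figure D4:**
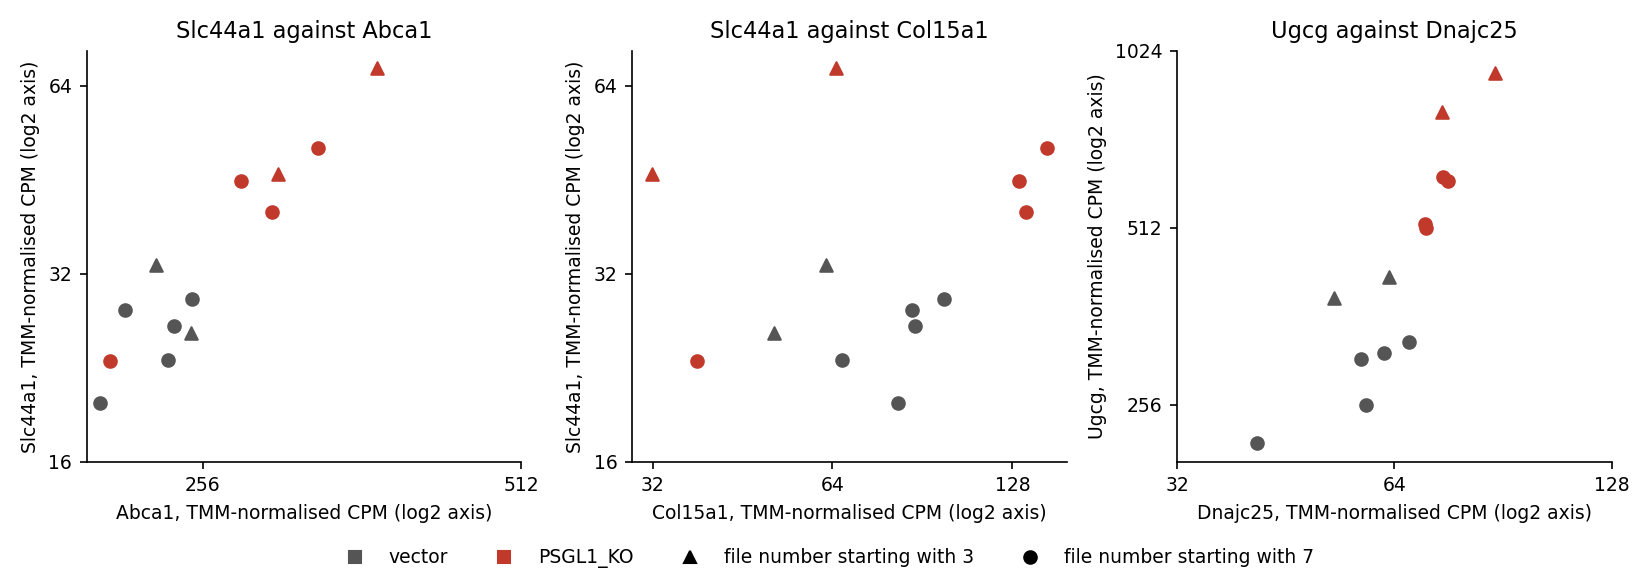
Levels in each library as TMM-normalised CPM on log2 axes: Slc44a1 against Abca1, Slc44a1 against Col15a1, and Ugcg against Dnajc25. The means of group and file number are not removed here, and r was 0.94, 0.20 and 0.87 in this order. PSGL1_KO replicate 3 is the red point at 23.2 CPM of Slc44a1, inside the vector range, and is near the low end for Abca1 and Col15a1 as well.

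Of 113 other lipid genes, listed with earlier results of these data known, 23 lay in the stretch and 12 had enough counts to be tested. A list of 26 lipid genes, picked for lying on chromosomes 4, 6 and 15, gave 21 of the 23 and 11 of the 12. The counts that follow therefore describe the genes listed and not lipid pathways as a whole. Of the 12, 8 were higher in PSGL1_KO libraries and 0 were lower by edgeR, with 0 lower at an unadjusted p below 0.05 and 0 lower by DESeq2 or limma-voom. Their median log2 fold change was 0.50, beside 0.25 for the protein-coding IDs of the stretch, of which 36.5% were higher. In the glycosphingolipid list, B4galt1 was the only readable gene. This galactosyltransferase of the Golgi was at 190.0 ± 16.4 CPM (SD, n = 7) in vector and 288 ± 38.2 CPM (SD, n = 6) in PSGL1_KO libraries, and it rose by 0.59 (adjusted p 0.00023), with all 6 PSGL1_KO libraries above every vector library. In the cholesterol list (21 genes) Cyp7a1 lay in the stretch and had too few counts to be tested. The sphingomyelin list (31 genes) and the choline list (15 genes) had no other gene in the stretch, so partners of Nsmaf and Slc44a1 in those pathways are not described here.

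Of 11 tested genes from the list of other lipid genes on chromosomes 4, 6 and 15, 7 rose. Sdcbp, the adaptor syntenin, rose from 800.2 to 1215 CPM (0.56, adjusted p 0.00079), and Cpne3, a calcium-dependent phospholipid-binding protein, from 171 to 251 CPM (0.52, adjusted p 0.0015). Nipsnap3b was at 82.8 and 122 CPM (0.54, adjusted p 0.0015). Tmem68, an acyltransferase of neutral lipid synthesis, rose from 148 to 212 CPM (0.49, adjusted p 0.0047), and Stoml2, a cardiolipin-binding protein of the mitochondrial inner membrane, from 344 to 459.8 CPM (0.37, adjusted p 0.016). Tmem68 and Stoml2 lost their calls with the group as the only term (adjusted p 0.084 and 0.065) and with scaling on the stretch (adjusted p 0.093 and 0.26), and Stoml2 also in file number 7 alone (adjusted p 0.23) and without vector replicate 2 (adjusted p 0.068). Lpar1, a receptor for lysophosphatidic acid, rose by 1.10 (adjusted p 0.00087) from 11.2 CPM, and Clvs1, a lipid-binding protein of endosomes, by 1.53 (adjusted p 2.6e-05) from 6.11 CPM. The exons of Clvs1 overlap 2302 bp of Asph, a gene on the macrophage list that also rose. Decr1, Hsdl2, Pigo and Ptgr1 did not pass, at 0.37, 0.28, 0.26 and -0.01. The other 11 genes, among them Cyp7a1 and Baat, both of bile acid synthesis, and the aquaporins Aqp3 and Aqp7, had too few counts to be tested.

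**Figure D5:**
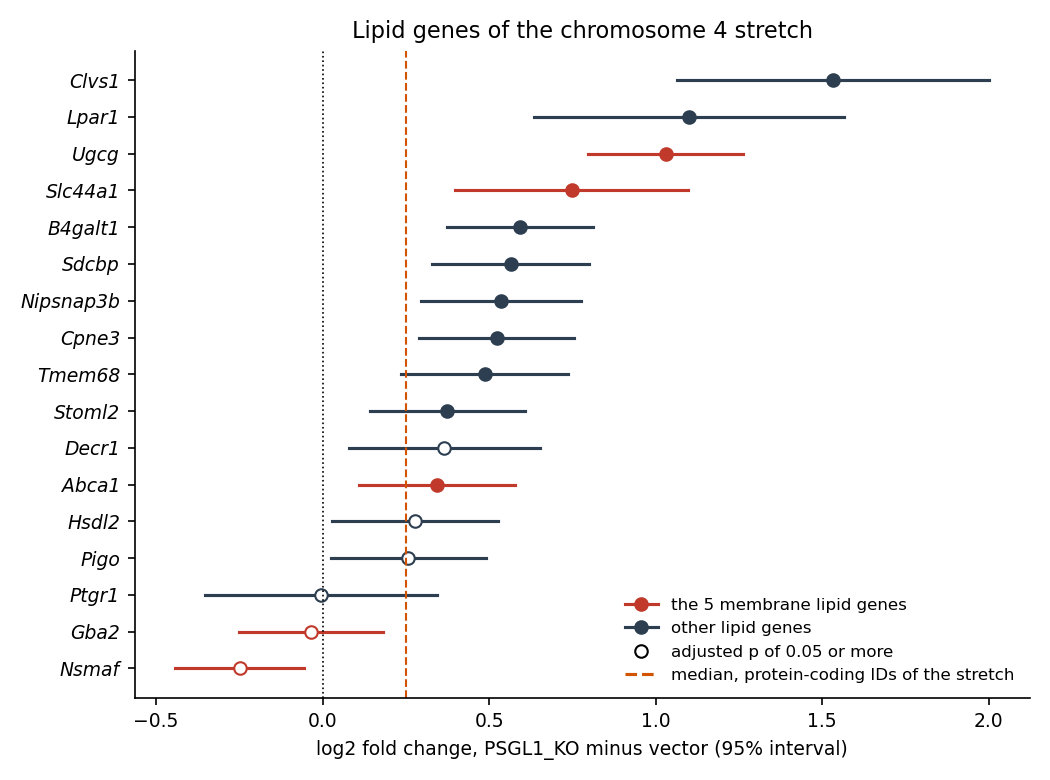
Log2 fold change, PSGL1_KO minus vector, with its 95% interval for the 5 members and the 12 other lipid genes of the stretch that were tested, with the members in red, other genes in dark blue, filled points for an adjusted p below 0.05 and a dashed line at 0.25, the median of the protein-coding IDs of the stretch. Filled points mark 8 of the 12 other genes, all to the right of 0.

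Marker genes of several cell types in the stretch moved with the groups. The lists were chosen with earlier results of these data known. Of the 211 protein-coding IDs tested in the stretch, 36.5% were called higher. All 5 readable genes of the macrophage and osteoclast list, Lyn, Atp6v0d2, Cd72, Rragd and Asph, were higher in PSGL1_KO libraries, and their summed level was 115 to 245 CPM in vector and 582 to 874 CPM in PSGL1_KO libraries. Of the 4 B-cell genes, Pax5, Cd72, Lyn and Bach2, 3 were higher, and the sums were 80.4 to 156 CPM and 421 to 616 CPM. Pax5, the gene of that list that defines B cells, was at 8.12 and 13.2 CPM and did not pass (adjusted p 0.054). Of the T-cell genes Sit1, Tox and Bach2, Sit1 was lower and Bach2 higher, and the sums were 319 to 516 CPM and 291 to 412 CPM. Of 6 stromal and endothelial genes, Svep1 and Lpar1 were higher and Col15a1 did not pass, Ccl19 and Ccl21a were at 0 counts in every library and Musk had at most 4 counts. Their sums were 86.1 to 153 CPM in vector and 95.2 to 276 CPM in PSGL1_KO libraries. The lists share Lyn, Cd72 and Bach2, and Lpar1 is also one of the lipid genes. Lyn and Cd72, on both the macrophage and the B-cell list, had means of 247 and 230 CPM in PSGL1_KO libraries. In vector libraries these were 58.7 and 47.8 CPM, so the 2 sums are not separate readings. Whether the listed genes mark these cell types in the sorted cells was not tested. PSGL1_KO replicate 3, low for Abca1 and Slc44a1, had 586 CPM in the macrophage sum. Replicates 4, 5 and 6, which share its file number, had 874, 780 and 642 CPM. Replicates 1 and 2, of the other file number, had 587 and 582 CPM. Within its group, replicate 3 was the lowest library for Lyn and Asph, at 151 and 37.6 CPM. It was not the lowest for Cd72, Atp6v0d2 or Rragd. Replicate 2 was the highest library for Abca1 and Slc44a1, at 374 and 68.4 CPM. Replicate 3 also had the lowest stromal sum of its group, 95.2 CPM. The part of these cell types in the differences of Ugcg, Slc44a1 and Abca1 was not tested.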

How the data were processed

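The authors deposited 1 table of raw read counts per Ensembl gene ID for each of the 13 libraries. The submitters' processing notes name HISAT2, SAMtools and HTSeq and the mouse build mm10. The sources used here give neither versions nor the strand setting. Of 56923 IDs, 52073 matched GENCODE M21 on GRCm38, which gave names and coordinates. HTSeq summary rows, which took most of each library's reads, were kept out: gene IDs received 10.5% to 12.5%. Reads that fell on no counted feature made up 67.3% to 75.4% of each library. The lowest mean chi-square per ID between libraries of a group was 3.22, so none was counted as a repeat of another. Vector replicates 3, 4 and 7 were the closest to each other, at 3.22 to 3.98. These values do not show whether libraries share a mouse.

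PSGL1_KO and vector were compared in edgeR 4.0.16 (R 4.3.3) with the quasi-likelihood test, robust dispersion, TMM factors, filterByExpr and the group plus the leading digit of the file number as terms. P-values are two-sided and were adjusted by Benjamini-Hochberg over 10422 IDs, with a threshold of 0.05. At an unadjusted p below 0.05, 3884 IDs passed. The common biological coefficient of variation was 21.2%. Levels are TMM-normalised CPM unless stated, and log2 fold changes are PSGL1_KO minus vector. The alternatives were the group alone, each file number alone, a replicate block, other scalings and filters, DESeq2 1.42.0, limma-voom (limma 3.58.1) and each library left out. Likeness is Pearson's r over log2 CPM after removing the 4 means of group and file number.

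Named genes were the members, the tested genes of the lipid lists, the marker lists and the 2 genes most like each member. The members and lists were chosen with earlier results of these data known. Lists were restricted to the chromosome 4 stretch, and 1 gene of the lipid lists is not reported here. Promoters came from RefSeq windows, which matched 4 of the 5 members, and those of Abca1 and Slc44a1 are shown.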

Additional observations from a re-analysis of the deposited data

Results flagged for a closer look

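Ptgr1, which encodes a reductase of prostaglandins and leukotrienes, differed in its response between the file numbers. Its log2 fold change was 0.75 among files numbered from 3 (adjusted p 0.0017 in edgeR) and -0.34 among those numbered from 7 (adjusted p 0.14). The test of the difference gave 1.05 (95% interval 0.48 to 1.63, adjusted p 0.049), and 2.11% of all IDs passed that test. In 34 sets of values, the 5 members and 12 other lipid genes in each group, no library stood apart by its gap to the next, where chance marks about 1 in 20. Each set mixed both file numbers, which can hide a single library, so this does not show that every library was alike.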

How the results depend on the processing

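In all, 2689 IDs were called, 1512 with the group as the only term, and 2241 to 2896 without 1 library each. Between 2 and 3 members were called without 1 library each, and 7 to 10 other lipid genes. The file number called 2 members, and 1 member with no filter on low counts. Gba2 reversed in file number 3 alone (0.17). Ptgr1 reversed with the group as the only term (0.09), in file number 3 alone (0.75) and with limma-voom (0.01). Without 1 library each, Gba2 ranged from -0.08 to 0.00 and Ptgr1 from -0.14 to 0.11. The cause of these changes was not tested.

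The titles share replicate numbers, and the libraries were not treated as pairs in the main fit. In either group, 2 of 6 libraries correlated best with their own number, which does not decide whether the numbers pair them. With a replicate block in place of the file number and without vector replicate 7, 2093 IDs were called, 2 members and 8 other lipid genes. Abca1 was at 0.36 (adjusted p 0.08 in edgeR) and Ptgr1 at 0.11. Slc44a1, at 90 to 301 counts per library, is the member that depth limits most.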
